A study of Mus musculus with 4 samples.

Results

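Apolipoproteins are the protein part of the particles that carry fat and cholesterol in blood, and the liver makes most of them. The 10 genes described here are Apoa1, Apoa2, Apoa4, Apoa5, Apob, Apoc1, Apoc2, Apoc3, Apoe and Apom. They were taken by gene name from the array, where they have 17 of the 56605 probes and are 10 of 37021 gene names. Liver RNA of wild-type C57BL/6 mice was measured on 4 arrays, 1 for each group. One group was female mice given aristolochic acid I (AAI), a plant compound that damages the kidney and is carcinogenic, at 5 mg/kg/day, and another was male mice given 2 mg/kg/day. The remaining groups were female and male mice given corn oil, the vehicle of AAI. All mice were 6 weeks old and had intraperitoneal injections for 3 weeks, on 5 days of each, and each array holds equal amounts of RNA from 5 mice. With 1 pooled array per group there was no replicate and no test, and since the doses differed, sex and dose cannot be told apart.

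Apolipoproteins differ in what they do for a particle. A single Apob chain stays with each very low density lipoprotein from its assembly in the hepatocyte, with the help of the transfer protein Mttp, until the particle is removed from blood. Apoa1 and Apoa2 form the shell of high density lipoprotein, which collects cholesterol from cells, while the smaller C proteins, Apoa4, Apoa5 and Apoe move between particles and steer lipoprotein lipase and the receptors. In mouse liver part of the Apob message is edited to a shorter form.

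Signals are log2 values after quantile normalization, which gives the 4 arrays 1 distribution, and each probe was compared with itself only. All 17 probes were well above background on all arrays, and none was saturated or marked as an outlier. A ratio is a difference of log2 signals, given for the brightest probe of a gene unless another is named. For technical error there were 2 measures. Where a gene had several probes, the SD of their ratios had a median of 0.25 for females and 0.24 for males. This median is the spread between probes named below. The 90th percentile of the SD was 0.64 for females and 0.70 for males. The scanner software set the error of each member's ratio at 0.20. A gene counted as higher or lower at 2-fold, a log2 ratio of 1. In females 1.37% of 31682 genes were higher with AAI and 3.09% were lower. In males 3.51% of 30539 genes were higher and 4.59% were lower.

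With only 10 apolipoprotein genes, the counts past that limit do not set them apart from the shares over all genes. In females none of the 10 passed it in either direction. In males Apoa4 was higher, 1 of 10, and none was lower. Their median log2 ratio was 0.14 in females and 0.02 in males, beside 0.04 and 0.00 over all genes. The values nearest to the limit were those of Apoa4, at 0.62 in females and 1.02 in males, and of Apob, at 0.47 and -0.94. The remaining 8 genes lay between -0.34 and 0.39 in females and between -0.43 and 0.31 in males, within the range from the 10th to the 90th percentile of 1476 bright genes (-0.46 to 0.44 in females and -0.49 to 0.43 in males). Apob was the 1 gene of the 10 with a ratio beyond the median spread between probes in both sexes and of opposite sign. Its female ratio of 0.47 was below the 90th percentile of that spread, 0.64.

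The probes of Apob and Apoa4 are shown because these genes had the largest ratios, and those of Apoa5 and Apoc3 because their probes differed. Sequences are those in the array files, in lower case and 5′ to 3′, whole for Apob and as the first 30 of 60 bases for the others. The number after a name is the base of the transcript at which the probe starts. Coordinates are on mouse build mm9 as annotated by the array, on the plus strand except for Apoc3 on the minus strand.
Apob 4473, chr12:8012697-8012756: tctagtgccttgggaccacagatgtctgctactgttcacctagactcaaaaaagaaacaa
Apob 955, chr12:7992933-7994547: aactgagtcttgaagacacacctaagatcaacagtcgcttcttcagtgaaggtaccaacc
Apoa4 1330, chr9:46051206-46051266: agcttcctggagaagagcctgagggagaag
Apoa5 1749, chr9:46079431-46079490: tacctcctgactctcagggtggaactgact
Apoa5 897, chr9:46078579-46078638: acctgcagattgctgcatttactcaggcca
Apoc3 570, chr9:46041134-46041193: cctccctagatctcacctaaacatgctgtc
Apoc3 247, chr9:46041353-46041412: atcacttcagatccctgaaaggctactgga
Apoc3 54, chr9:46043606-46043665: aagcaggcctgaggtccaaggcttgtcccc
The 60 bases of the Apob probe at 955 extend over 1615 bases of the genome, so this probe joins pieces on both sides of an intron.

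**Figure D1:**
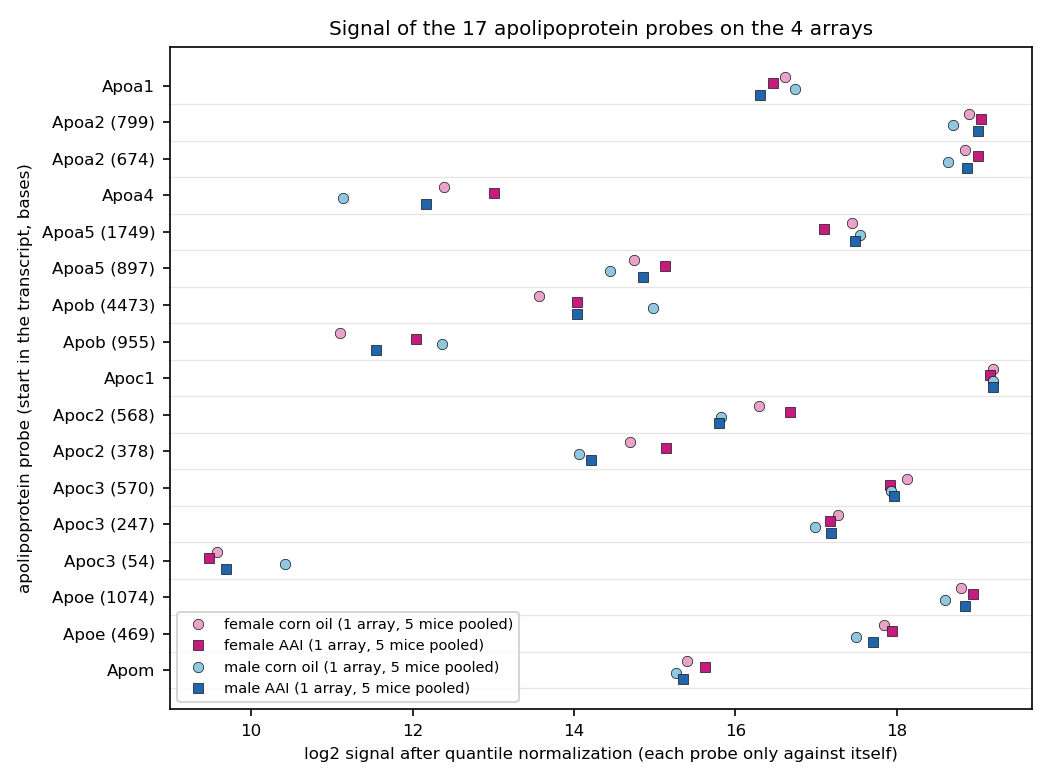
Log2 signal after quantile normalization (horizontal axis) of each apolipoprotein probe (vertical axis, with its start in the transcript in bases where a gene has more than 1 probe) on the 4 arrays, 1 point per array. The points of Apoa1, Apoa2, Apoc1, Apoe and Apom differ by at most 0.44, while Apob, Apoa4, Apoc2 and the Apoc3 probe at base 54 spread by 0.88 or more.

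Apob encodes the protein that gives very low and low density lipoproteins their structure. Its log2 signal in females was 13.57 with corn oil and 14.04 with AAI, and in males it was 14.98 with corn oil and 14.04 with AAI. Corn oil-treated males stood above the other 3 groups. At this probe the AAI-treated groups of both sexes were level as processed here. With trend correction on all 4 arrays, AAI-treated males were below AAI-treated females by a log2 ratio of -0.26. The ratio of AAI to corn oil was 0.47 in females, 1.38-fold higher, and -0.94 in males, 1.92-fold lower, so the male ratio was 1.40 below the female ratio. The upstream probe gave 11.11, 12.04, 12.36 and 11.54 in the same order of groups. It showed the same directions, with 0.93 in females and -0.82 in males. Among the 1476 bright genes, 91.7% had a lower ratio than Apob in females and 1.56% in males. Over all genes above background on both arrays these shares were 87.3% and 4.78%. The difference between the sexes was not tested, since no group has a second array.

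Probe position was set beside these values by the base at which a probe starts, since its distance from the tail of the message, where labelling begins, was not measured here. Over 3282 RefSeq probes that start at base 4000 or later, the group of the downstream Apob probe, the median ratio was -0.07 in females, -0.10 in males and 0.11 for corn oil-treated males over females. Over 7152 probes that start before base 1000, the group of the upstream Apob probe, these medians were 0.08, 0.07 and -0.09. The medians of the 2 groups had opposite signs in each of these comparisons. Both Apob probes had the sign of the later starts in males and for corn oil-treated males over females. In females both had the sign of the earlier starts. For AAI-treated males over females the medians were 0.09 for the later starts and -0.09 for the earlier ones. There the Apob probes differed, with 0.00 downstream and -0.49 upstream. For 762 transcripts with 2 probes at least 3000 bases apart, the upstream ratio minus the downstream ratio had a median of 0.08 in females and 0.14 in males. Its 10th to 90th percentiles were -0.54 to 0.80 in females and -0.56 to 0.69 in males. The upstream Apob probe exceeded the downstream one by 0.47 in females and 0.12 in males. The part of message length or RNA quality in the Apob values was not tested.

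Apoa4, which is made in intestine and liver and is known to vary in liver with its load of fat, was higher with AAI in both sexes. Its log2 signal in females was 12.39 with corn oil and 13.01 with AAI, and in males it was 11.14 with corn oil and 12.16 with AAI. Both female values were above the value of the same treatment in males, and AAI-treated males reached about the level of corn oil-treated females. The ratio was 0.62 (1.54-fold) in females, against 1.02 (2.03-fold) in males. Apoa4 has 1 probe, so these values have no second probe to set beside them. In males the ratio was 0.80 when the arrays were centred on bright probes and 0.98 under normexp background correction, and both take it below 2-fold. Of 11 intestinal markers, none was 2-fold higher or lower with AAI in either sex, with medians of -0.01 in females and -0.19 in males. Of the 12 on the array, 10 and 11 were well above background in corn oil- and AAI-treated females. In the males 10 and 9 were. The intestinal regulator Cdx2 was not well above background on any array. The part of intestinal RNA in the Apoa4 signal was not tested.

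**Figure D2:**
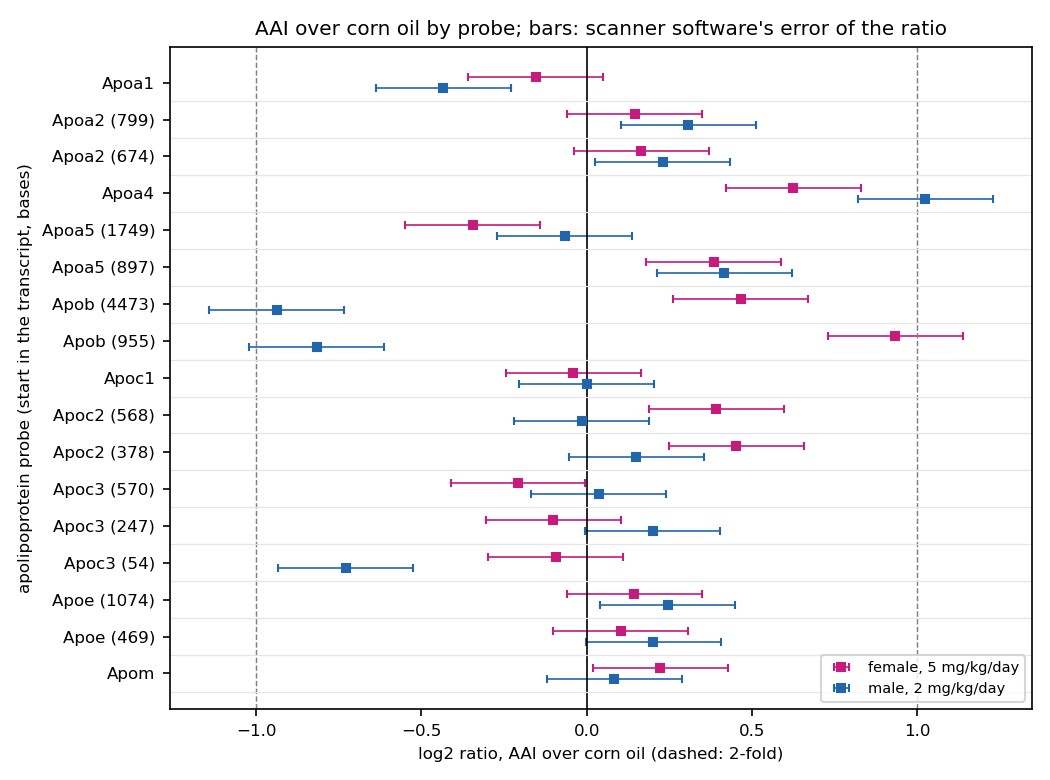
Log2 ratio of AAI over corn oil (horizontal axis) for each of the 17 probes (vertical axis) in females at 5 mg/kg/day and males at 2 mg/kg/day; bars are the error of the ratio set by the scanner software, 0.20, and do not hold the spread between mice. Both Apob probes lie above 0 in females and below 0 in males, Apoa4 lies above 0 in both sexes, and the probes of Apoa5 lie apart.

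The genes of high density lipoprotein changed by less than 2-fold. Apoa1, its main protein and the activator of the cholesterol-esterifying enzyme Lcat, had a log2 signal of 16.62 in females with corn oil and 16.47 with AAI, and of 16.74 and 16.31 in males. AAI-treated males had the lowest value of the 4 groups, with a ratio of -0.43 in males and -0.15 in females. Only the male ratio was beyond the spread between probes, and under 75th percentile scaling it was -0.20, within that spread. Apoa1 has no second probe. Apoa2, the second protein of these particles, had 18.89 and 19.04 in females and 18.70 and 19.01 in males, so it was higher with AAI by 0.15 and 0.31. Its other probe gave 0.16 and 0.23. The sign of the Apoa2 ratio turned under 4 of 8 other settings in females and 2 of 8 in males, with values down to -0.12 and -0.13 under cyclic loess, so no direction can be given. Apom, which carries sphingosine phosphate on these particles, had 15.40 and 15.62 in females and 15.27 and 15.35 in males. Its ratios of 0.22 and 0.08 were within the spread between probes.

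Lipoprotein lipase frees fatty acids from triglyceride on circulating particles, and a set of small apolipoproteins sets its activity. Apoc2 is its cofactor. The Apoc2 signal was 16.29 and 16.68 in corn oil- and AAI-treated females and 15.82 and 15.80 in the males. It was thus higher with AAI in females, by 0.39, and level in males, at -0.01, and both male values were below both female values. The other probe gave 0.45 and 0.15, and its values showed the same order of the sexes.

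Apoc3 slows the lipase and the removal of remnants. Its brightest probe, at base 570, had 18.13 and 17.92 in females and 17.93 and 17.97 in males, with ratios of -0.21 and 0.04. The probe at base 247 gave -0.10 and 0.20. The array annotates each of the 3 probes to a different Apoc3 transcript, so their start bases are not on 1 scale. The probe at base 54 was much dimmer, and its signals of 9.57, 9.48, 10.42 and 9.69 put corn oil-treated males above the other 3 groups. Its ratio in males was -0.73, which set it 0.93 apart from the probe at base 247. The 3 Apoc3 probes therefore gave like ratios in females, within 0.11 of each other, and unlike ratios in males.

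Apoa5, a liver protein that raises the activity of the lipase, had 2 probes that disagreed. The probe at base 1749 had 17.45 and 17.10 in corn oil- and AAI-treated females and 17.55 and 17.48 in the males. The probe at base 897 had 14.74 and 15.13, then 14.44 and 14.86. The first gave ratios of -0.34 and -0.07 and the second 0.38 and 0.42, and the mean over both was 0.02 in females and 0.17 in males. No direction with AAI can be given for Apoa5 from these values. Apoc1, an inhibitor of the uptake of particles by receptors, was among the 3 brightest probes of each array, with 19.19, 19.15, 19.19 and 19.19. The quantile step gives the same value to probes of the same rank, so that equal values say little about Apoc1. Before this step its spot read 71.1% to 74.1% of the value at which the scanner saturates.

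Apoe, the ligand by which remnants are taken up by cells, is made by hepatocytes and by macrophages. Its signal was 18.80 and 18.94 in females and 18.60 and 18.84 in males. It was higher with AAI by 0.14 and 0.24, and its other probe gave 0.10 and 0.20. Under cyclic loess these ratios were -0.05 and -0.05, and when centred on bright probes they were -0.02 and 0.02, so the direction of Apoe depends on the scaling. Beside it, 9 of 11 Kupffer cell and macrophage markers were 2-fold lower with AAI in females and 2 of 11 in males, with medians of -1.33 and -0.65. The largest ratios among them were those of Cd5l, Timd4 and Clec4f, at -1.77, -1.55 and -1.41 in females. The part of these cells in the Apoe signal was not tested, and in pooled tissue fewer cells of a type and less RNA per cell cannot be told apart.

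**Figure D3:**
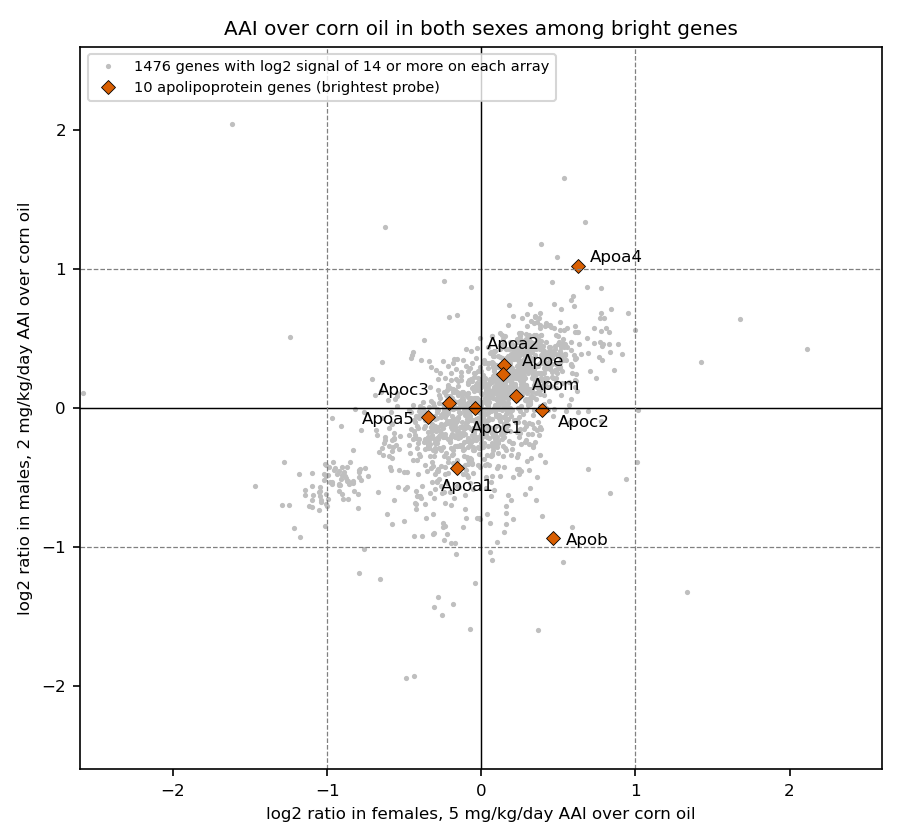
Log2 ratio of AAI over corn oil in females (horizontal axis) and in males (vertical axis) for 1476 genes with a log2 signal of 14 or more on every array (grey; 11 lie outside the axes) and for the 10 apolipoprotein genes (orange). Most apolipoprotein genes lie in the middle of the cloud, while Apoa4 and Apob lie at its upper and lower edge in males; these 2 genes were below a signal of 14 on at least 1 array.

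Without AAI, the sexes differed most in Apob and Apoa4. Of 30891 genes, 3.83% were 2-fold higher in corn oil-treated males than in females and 1.86% were lower. Among the 10 genes Apob was higher in males, 2.66-fold with a ratio of 1.41, and Apoa4 was lower, 2.38-fold with a ratio of -1.25. The upstream Apob probe gave 1.25. Over genes above background on both arrays, 98.5% had a lower ratio than Apob and 0.732% had a lower ratio than Apoa4. Apoc2 was lower in males by 0.47, and the remaining 7 genes lay between -0.20 and 0.12. These ratios share their corn oil arrays with the ratios of AAI to corn oil, so that the position of corn oil-treated males enters both.

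After AAI, 3.25% of 31494 genes were 2-fold higher in males than in females and 1.17% were lower, and none of the 10 genes was in either count. Apoc2 had the lowest ratio at -0.88, 1.84-fold, with -0.93 at its other probe, and Apoa4 had -0.85. Apom had -0.27, and the Apoa5 probes again disagreed, with 0.38 at base 1749 and -0.27 at base 897. The brightest Apob probe was level, at 0.00, but had -0.26 with trend correction on all 4 arrays. The upstream probe was lower in males by 0.49. Apoc2 and Apoa4 were lower in males than in females both with and without AAI, by 0.47 to 1.25.

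On the chromosomes the genes lie in groups. Apoa1, Apoc3, Apoa4 and Apoa5 have their probes within 41.6 kb on chromosome 9, and Apoc2, Apoc1 and Apoe within 24.8 kb on chromosome 7. At the brightest probes the ratios of neighbours differed. Of these genes, no direction could be given for Apoa5, that of Apoe depended on the scaling, and the values of Apoc1 say little. On chromosome 9 the female ratios were -0.15, -0.21, 0.62 and -0.34 in the order given, and the male ratios -0.43, 0.04, 1.02 and -0.07. On chromosome 7 they were 0.39, -0.04 and 0.14 in females and -0.01, 0.00 and 0.24 in males. Apoc4, a neighbour of Apoc2 that is no member of the group, had 0.39 and 0.21.

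Genes that act with the apolipoproteins were read from 7 lists. Beside their counts stand the shares over all genes, 1.37% higher and 3.09% lower in females and 3.51% higher and 4.59% lower in males. Of 24 genes of lipoprotein assembly and secretion, none did in females, and 1 was higher and 1 lower in males, with medians of 0.22 and -0.11. Mttp, which loads lipid onto the Apob chain, had 0.26 in females and -0.67 in males at its brightest probe, and -0.33 and 0.09 at the other, so no direction can be given. The chaperone Hspa5 was lower in males, at -1.05, but its other probes gave -0.72 and -0.68 there, short of 2-fold, and in females 0.45 and 0.58 against -0.16 at the brightest. Its signal in corn oil-treated males was 1.12 above that of females, the same standing of corn oil-treated males as for Apob. P4hb, the partner of Mttp, had 0.96 in females and 0.28 in males, and 0.42 and 0.07 at its other probe. The lipid droplet genes Cidec and Plin2 moved apart in males, where Cidec had 2.48 and Plin2 -0.97, and had 0.26 and -0.47 in females. The other Plin2 probe gave -0.27 in males and -0.15 in females.

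The editing of the Apob message is done by Apobec1 with its cofactors A1cf and Rbm47. None of these 3 genes reached 2-fold at its brightest probe. In males Apobec1 had -0.62 and A1cf -0.69, and all their other probes above background, 2 and 4, were below 0. In females both had -0.08, and 1 of 2 and 3 of 4 other probes were below 0, so that no difference between the sexes is given for them. Rbm47 had 0.24 in both sexes, with -0.01 in females and 0.38 in males at its other probe. The array does not measure the edited base.

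Among receptors and clearance genes, none of 16 reached 2-fold in females, and in males 2 of 15 were higher and 1 lower. Those higher were Vldlr, a receptor of muscle and fat, at 2.99 with 1.93 at its other probe, and the fatty acid carrier Cd36 at 1.38. Corn oil-treated males stood below the other groups for both genes. The Vldlr signal was 6.91 there against 9.23 to 9.90 elsewhere, and the Cd36 signal was 10.14 against 11.44 to 11.55. The endocytic receptor Lrp2 was lower at -1.41, while its other probes above background gave -1.28 and 0.27. Of 11 lipases and their regulators, Lpl was higher in males, at 1.79, and none reached 2-fold in females. Its 5 other probes lay between 0.21 and 2.21 in males, and Lpl had 0.35 in females. Angptl4, an inhibitor of the lipase, had -0.89 in females and -0.46 in males, the endothelial lipase Lipg had 0.05 and -0.73, and Gpihbp1, which anchors the lipase in capillaries, had 0.09 and 0.67.

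In the list of high density lipoprotein formation and cholesterol transport, 1 of 12 genes was 2-fold lower in males and none reached 2-fold in females. That gene was Abca1, which loads cholesterol onto Apoa1, at -1.02, with -0.90 at its other probe and 0.25 in females. Its signal in corn oil-treated males was 0.97 above that of corn oil-treated females. The phospholipid transfer protein Pltp had -0.81 in females and 0.02 in males, the sterol exporter Abcg8 had 0.47 and 0.77, and Pon1, an enzyme carried on the particles, had -0.68 and -0.16, with -0.27 and -0.25 at its other probe.

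Of 29 transcriptional regulators, 1 was 2-fold higher and 2 lower in females, and 1 was higher and 1 lower in males, with medians of -0.22 and -0.09. Hnf4a, the factor that drives most hepatic apolipoprotein genes, had -0.42 in females and -0.38 in males, and -0.96 and -0.27 at its other probe. Ppara, the fatty acid sensor, had -0.60 and 0.05, and -0.69 and -0.36 at its other probe. Nr1d1, a clock repressor of Apoc3, had 5.40 in females and 0.58 in males. Its signal in corn oil-treated females was low, at 4.61, though above background, against 7.90 to 10.01 in the other groups. The brightest Apoc3 probe differed by 0.21 at most, and a link between these genes was not tested. Onecut1 had -1.31 and -0.97, but -0.49 and -0.62 at its other probe. Ppargc1a had -0.90 and 1.29, with -1.23 and 1.75 at its other probe, and Foxa1 had -0.61 and -1.11. In a list of other apolipoproteins, whose 21 genes on the array include Pltp, 1 was lower in females and 3 were higher in males. The acute phase proteins Saa1 and Saa2, which join high density lipoprotein during inflammation, had 2.86 and 2.97 in males and -0.79 and -1.18 in females. Apod had 1.45 in males and 0.79 in females, and Saa4 had -0.92 and -0.42.

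**Figure D4:**
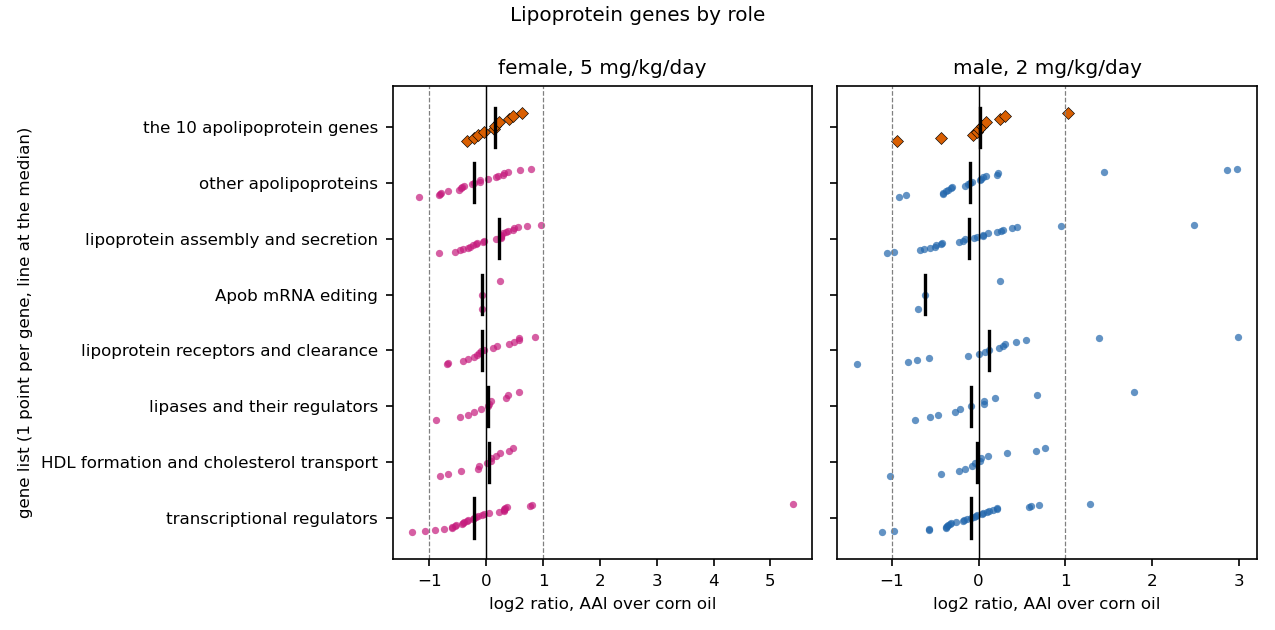
Log2 ratio of AAI over corn oil (horizontal axis) for the genes of 7 lists and for the 10 apolipoprotein genes (vertical axis), in females at left and males at right, with 1 point per gene and a line at the median. Dashed lines mark 2-fold; the medians lie between -0.22 and 0.22 in females and, apart from the 3 editing genes at -0.62, between -0.11 and 0.12 in males.

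The signal of marker genes of other tissues differed between the groups. Whether the pools held RNA of these tissues was not tested. Genes of skeletal muscle had a mean log2 signal of 5.80 with corn oil and 11.61 with AAI for females, and of 8.53 and 14.51 for males, and all 12 were 2-fold higher with AAI in both sexes, led by Acta1, Myh1 and Mb with 8.08, at least 7.33 and 6.66 in females. In the same order of groups, adipocyte genes had 6.96, 7.65, 8.59 and 11.84, adrenal cortex genes 8.02, 7.97, 9.32 and 11.68, and adrenal medulla genes 8.88, 8.77, 9.07 and 11.29. With AAI 3 of 8 adipocyte genes were higher in females and 7 of 9 in males, as were 7 of 10 genes of the adrenal cortex and 3 of 6 of the medulla in males and none in females. In males 1 gene of each adrenal list was lower. Red cell genes were lower in males for 5 of 7, and 1 of 7 was higher in females. Kidney tubule genes were level, with 0 of 10 in females and 1 of 9 in males past 2-fold. Hepatocyte markers were bright in all groups, with a mean of 17.34 to 17.77, and none of 9 passed 2-fold. Muscle and fat express Vldlr, Cd36, Lpl, Cidec and Apod, which are among the list genes that were higher in AAI-treated males. In females, where muscle genes were also higher with AAI, these genes had 0.39, 0.11, 0.35, 0.26 and 0.79 in that order. The part of other tissues in these ratios, and in that of Apoa4 and Apob, was not tested.

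**Figure D5:**
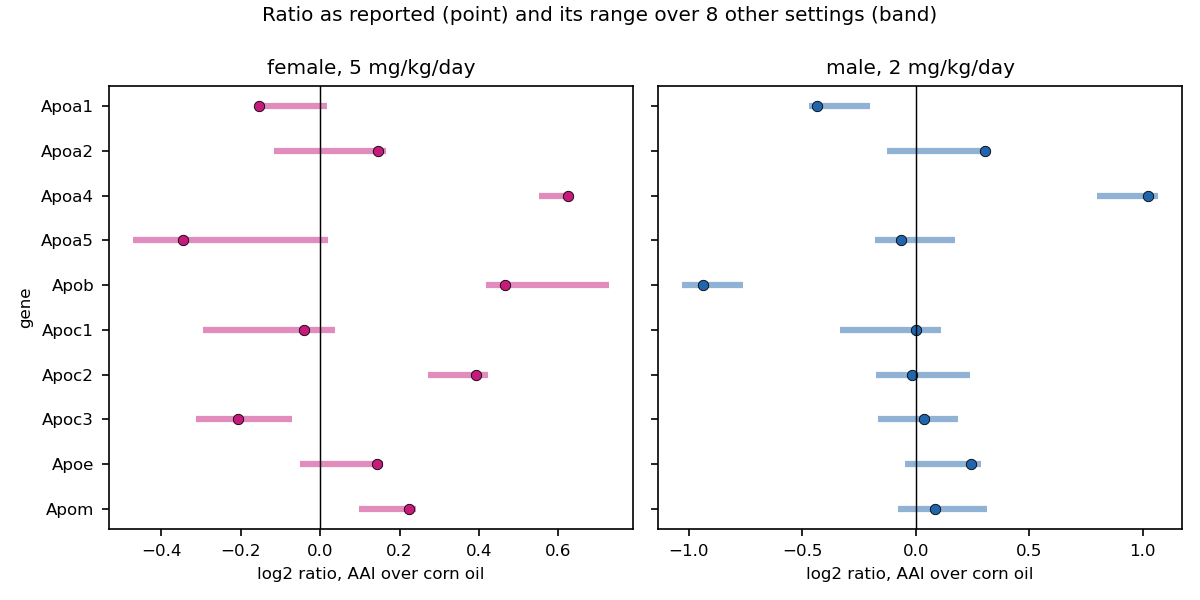
Log2 ratio of AAI over corn oil (horizontal axis) for the 10 genes (vertical axis) as reported (point) and its lowest to highest value over 8 other ways to process the arrays (band), in females at left and males at right. The bands of Apoa4 and Apob stay on 1 side of 0 in both sexes, as do those of Apoc2, Apoc3 and Apom in females and Apoa1 in males, while the others cross 0.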

How the data were processed

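The 4 arrays were single-colour Agilent SurePrint mouse arrays. The authors scanned them, quantified them with Feature Extraction 10.5.1.1 and deposited spot intensity, background-subtracted and processed, on a linear scale, plus a whole-series table of normalized intensity. The factor of the trend correction that the software uses, deposited in another column, was applied on 3 arrays (all but the array of females given AAI). Here log2 processed intensity, without control and outlier spots, was averaged by probe and quantile normalized over 56495 probes (Python 3.11.15, numpy 2.4.6, pandas 2.3.3). A gene was read from its brightest probe and counted at 2-fold when well above background on at least 1 of both arrays, with a bound where it was not on the other. Normexp (offset 50) and cyclic loess were run in limma 3.58.1. Other settings were 75th percentile scaling, no trend correction, trend correction on all arrays, the deposited normalized intensity, the mean over probes, and centring on bright probes. The calculation was tested on simulated data. The files hold no counts, so the number of arrays limits the precision.

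The genes and lists were chosen with earlier results of these data known. From each list up to 4 genes with the largest ratio, 3 for marker lists, and 7 central genes were eligible to be named, and some of these are not reported here. The values of Apoc4 and Cdx2, the signals of Hspa5, Abca1, Nr1d1, Vldlr and Cd36, and the comparison of probe positions were chosen after values were seen. Genes not above background on either array of a comparison were not counted in it. Apol7e, Angptl8, Cetp, Tf and Emr1 were not matched by these names (Gm6484 and Adgre1 stand for Angptl8 and Emr1).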

Additional observations from a re-analysis of the deposited data

Results flagged for a closer look

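The response of Apob to AAI differed between the sexes in sign: the male log2 ratio minus the female log2 ratio was -1.40 at the brightest probe and -1.75 at the upstream probe, with 1 array on each side of each ratio. The difference was not tested, and the doses were 2 and 5 mg/kg/day. The Apob signal of corn oil-treated males, at 14.98, stood above 13.57 to 14.04 in the other 3 groups and enters the male ratio.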

How the results depend on the processing

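Of 320 values of the 10 genes under 8 other settings, 297 moved by less than the spread between probes and 23 by more. The mean over probes cannot move the 4 genes with 1 probe. No 2-fold value changed sign, and these were Apoa4 in males and Apob and Apoa4 between the corn oil-treated sexes. Smaller values did change sign, such as that of Apoa2 in females under 4 of 8 settings. Apoa4 ranged over 0.55 to 0.63 in females and 0.80 to 1.07 in males, and Apob over 0.42 to 0.73 and -1.03 to -0.76. Between the corn oil-treated sexes Apob ranged over 1.15 to 1.46 and Apoa4 over -1.37 to -1.06. Between the AAI-treated sexes Apob ranged over -0.26 to 0.01. The count of genes higher in males was 0 under normexp, 0 when centred on bright probes and 0 at 3-fold, and the count lower was 1 when centred and 1 at 1.5-fold. At 1.5-fold 1 gene was higher in females and 2 were lower in AAI-treated males than in females. At 3-fold 0 were higher and 0 lower in corn oil-treated males. The median of that comparison was 0.0895 under cyclic loess. Without the filter on dim probes 2.91% of all genes were higher in females. Centring on bright probes moved the median of all probes by -0.22 in males and 0.25 between the corn oil-treated sexes. No paired analysis was possible because each group has 1 array. No replicate could be left out. The brightest probes, Apoa2, Apoc1 and Apoe, read 60.5% to 74.1% of the saturation value, where quantile values are set by few ranks, and dim probes limit the range at the other end.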
